A study of Mus musculus with 7 samples.

Results

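The TAM receptors and their ligands are 6 genes, taken by name from the 55491 gene rows of a single-cell RNA matrix: the receptor tyrosine kinases Axl, Mertk and Tyro3, and the secreted ligands Gas6, Pros1 and Mfge8. The rule that lists them uses no measured value, but the members were chosen with earlier results of these data known. All 6 were among the 31358 genes with a UMI (unique molecular identifier, 1 per captured RNA molecule). The matrix held 28644 sorted cells from 7 mice with CT-2A glioma, a mouse astrocytoma line grown in the brain, with 1 droplet 5-prime library per mouse. All 7 mice had floxed Siglece alleles; the Sall1-CreERT2 driver was present in 4 of them (KO) and absent from 3 (WT). Mice received the tumour at 8 to 12 weeks of age, and both genotypes were given tamoxifen at 2.5 mg per injection into the peritoneum, each day from day 7 to day 21 after the tumour and every other day from then on. Sall1 drives the recombinase, so the deletion is aimed at microglia, and the driver allele is itself a modified Sall1 locus that the WT mice lack. The cells came from the whole tumour-bearing hemisphere, were frozen and thawed, and were sorted live for CD45, CD11b or both. The authors gave each cell 1 of 23 cell type names, joined here into 9 classes.

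TAM receptors let phagocytes take up dying cells. Gas6 and protein S (the product of Pros1) bind phosphatidylserine on the dying cell with a vitamin K-dependent domain and bind the receptor with the other end. Mfge8 (lactadherin) also bridges phosphatidylserine, but to integrins and not to the TAM kinases. In the brain, microglia clear dead cells through Mertk and Axl, and Axl is known to be raised by interferon and inflammation while Mertk marks resting tissue macrophages. Both receptors also dampen innate immune signalling.

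In GENCODE M21 (build GRCm38), all 6 genes are protein-coding. Axl lies on chromosome 7 from 25757273 to 25788705 on the minus strand, and Mfge8 on the same chromosome from 79133768 to 79149060 on the minus strand. Mertk lies on chromosome 2 from 128698956 to 128802894 and Tyro3 on chromosome 2 from 119797733 to 119818104, both on the plus strand. Gas6 lies on chromosome 8 from 13465374 to 13494490 on the minus strand, and Pros1 on chromosome 16 from 62854307 to 62929346 on the plus strand.

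Promoters are shown for Axl, with the largest genotype difference in microglia among the members tested there, and for Mertk, Gas6 and Pros1, whose levels were highest together in microglia. Each run is the 250 bases before the RefSeq transcription start (build GRCm38.p6), 5′ to 3′ on the strand of the gene. Capitals mark a GC box (Sp1 motif, GGGCGG on either strand) or, in Axl, also a PU.1 core (GAGGAA on either strand); PU.1 is a transcription factor of myeloid cells.
Axl, chr7:25788734-25788983, minus strand: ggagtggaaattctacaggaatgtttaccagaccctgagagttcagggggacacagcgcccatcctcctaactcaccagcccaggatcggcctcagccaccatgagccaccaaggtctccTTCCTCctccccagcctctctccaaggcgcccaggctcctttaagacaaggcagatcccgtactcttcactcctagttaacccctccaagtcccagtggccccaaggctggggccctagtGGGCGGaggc
Mertk, chr2:128698665-128698914, plus strand: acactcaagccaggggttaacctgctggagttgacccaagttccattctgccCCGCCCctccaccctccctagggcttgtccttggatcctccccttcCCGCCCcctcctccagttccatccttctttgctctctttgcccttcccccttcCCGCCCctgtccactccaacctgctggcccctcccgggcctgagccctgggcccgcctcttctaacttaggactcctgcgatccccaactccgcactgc
Gas6, chr8:13494536-13494785, minus strand: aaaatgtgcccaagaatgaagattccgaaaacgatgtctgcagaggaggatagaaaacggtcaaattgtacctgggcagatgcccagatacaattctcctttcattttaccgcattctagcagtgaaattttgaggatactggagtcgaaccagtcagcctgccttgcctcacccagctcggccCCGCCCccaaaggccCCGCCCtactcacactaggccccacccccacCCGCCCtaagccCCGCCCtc
Pros1, chr16:62854057-62854306, plus strand: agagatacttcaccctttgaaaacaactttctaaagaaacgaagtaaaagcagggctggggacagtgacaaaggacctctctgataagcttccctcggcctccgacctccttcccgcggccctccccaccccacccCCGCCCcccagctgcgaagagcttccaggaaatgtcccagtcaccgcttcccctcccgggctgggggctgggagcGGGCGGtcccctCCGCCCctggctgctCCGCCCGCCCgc

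The GC box matched once before Axl, 3 times before Mertk and Tyro3, 4 times before Gas6 and Mfge8, and 5 times before Pros1, where 2 matches overlap. Of 27025 mouse promoters of the same length, 32.9% held that motif. The PU.1 core matched in Axl and Mfge8, and in 23.1% of all promoters. No member held an AP-1 motif (TGANTCA, in 6.87% of promoters), a MAF half-site (TGCTGA, in 15.8%) or an interferon response motif (GAAA on each side of 2 free bases, in 3.04%). These are matches of letters in 1 window, not measured binding sites.

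Libraries held 1410 to 5856 cells with a median of 4479 to 9554 UMIs per cell. Of the cells, 926 had a barcode that also occurred in another library. Microglia were few: 30, 21, 13 and 49 cells in KO replicates 1 to 4, and 113, 92 and 96 in WT replicates 1 to 3. Levels are given as UMIs of a gene per 1000000 UMIs of the same cells and mouse (CPM), and mice with fewer than 20 cells of a type were left out of means and fits unless a lower minimum is named. For the name Microglia that left the 3 WT mice alone, and for Microglia (Low-quality/activated) KO replicates 1 and 4 with the 3 WT mice, so means of these names cover unlike genotypes. Xist and Y-linked UMIs marked 3 mice as female, namely WT replicate 3 with KO replicates 1 and 2, and 4 as male. As a check of the labels, Siglece, the deleted gene, stood in microglia at 10.7, 19.6, 0 and 0 CPM in KO replicates 1 to 4 and at 36.1, 45.9 and 18.6 CPM in WT replicates 1 to 3, so 1 KO mouse exceeded 1 WT mouse; which exons are deleted is not given in the sources used here. The microglia of KO replicate 2 held 51086 UMIs in all, so its Siglece value rests on very few molecules. Sall1, the driver's gene, was at 48.2, 39.1, 108 and 66.6 CPM in KO and 130, 145 and 90.1 CPM in WT microglia. In monocyte-derived cells Siglece was at 41 to 48.7 CPM in KO and 26.6 to 52.9 CPM in WT mice. All 8 microglia markers had their highest class level in microglia. The other lists used below were less specific. In monocyte-derived cells 3 of 8 monocyte-derived markers and 5 of 8 border-associated macrophage markers were highest, and in T cells 5 of 7 T cell markers.

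Of the receptors, Mertk separated cell types most. It was highest in the cells the authors named Microglia (Low-quality/activated), at 842 ± 175 CPM (SD, n = 5 mice), then in Microglia, at 297 ± 34.9 CPM (SD, n = 3, all WT). In the WT mice alone the low-quality/activated cells held Mertk at 735 ± 110 CPM (SD, n = 3). Macrophages (P5) followed at 125 ± 15.1 CPM, Macrophages (P3) at 96 ± 20.6 CPM and Monocytes (P1-P2) at 49.2 ± 12.6 CPM (SD, n = 7 each); the labels used here do not define P1 to P5. Each of the first 3 steps in this order was larger than the spread of the neighbours, while proliferating macrophages (76.4 ± 24.4 CPM, n = 6) lay within the spread of Macrophages (P3). Mertk in mo-DCs (monocyte-derived dendritic cells) was 10.8 ± 4.96 CPM (SD, n = 7), and it was at 23.1 ± 7.37 CPM (SD, n = 5) in the tumour or stromal cells. Cell type names were built from the same matrix, so differences between names are described without a test. The low-quality/activated cells had a median of 2222 UMIs and 4.77% mitochondrial UMIs, against 6226 UMIs and 2.06% in Microglia, and the part of depth and RNA quality in their Mertk level was not tested.

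Axl was spread far more evenly. Its mean was 213 ± 115 CPM (n = 5) in low-quality/activated microglia, 197 ± 45.7 CPM in Monocytes (P1-P2), 196 ± 33.7 CPM in Macrophages (P3) and 194 ± 18 CPM in Macrophages (P5) (SD, n = 7 each). It was 176 ± 11.1 CPM (n = 5) in tumour or stromal cells and 134 ± 36.9 CPM (n = 3, all WT) in Microglia. In the WT mice alone Axl in low-quality/activated cells was 139 ± 43.9 CPM (SD, n = 3), close to Microglia, and in KO replicates 1 and 4 it was 389 and 258 CPM. None of the first 8 names, down to mo-DCs at 115 ± 26.9 CPM (n = 7), differed from its neighbour in rank beyond the spread over mice. The first step beyond the spread lay between mo-DCs and cDC1, at 56.9 ± 20.5 CPM (n = 7); cDC1 are the conventional dendritic cells that take up dead cells for cross-presentation. Axl in cDC2 was 29.6 ± 13.2 CPM (n = 7).

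Axl UMIs were also found in T cells, more in CD4+ than in CD8+ cells of most mice. In CD4+ T cells with Tregs it was 26.2, 36.9, 30.9 and 31.4 CPM in KO replicates 1 to 4 and 9.18, 41.7 and 21.7 CPM in WT replicates 1 to 3. In CD8+ T cells it was 7.9, 16.3, 7.43 and 8.13 CPM in KO mice and 15.2, 6.95 and 11.8 CPM in WT mice. CD4+ cells were higher in every mouse except WT replicate 1, where 105 CD4+ cells, 63 of them named naive or early activation, gave 6 Axl UMIs. By name, naive CD4+ cells (13.5 ± 13.6 CPM) and naive CD8+ cells (12.4 ± 6.86 CPM) lay within the spread over mice (SD, n = 7 each). Axl was higher in Th1 cells (40.5 ± 14.3 CPM), Tregs (38.9 ± 10.4 CPM) and Tfh cells (27.9 ± 4.62 CPM; SD, n = 6 each). The part of this mix of names in the CD4+ values was not tested. After each cell was thinned to 1500 UMIs, 6.3% ± 4.24 of Tregs and 5.5% ± 3.02 of Th1 cells held an Axl UMI (SD, n = 6 mice each), against 0.917% ± 1.09 of B cells (SD, n = 6). Without thinning the shares were 14.9% ± 5.27 of Tregs, 17.5% ± 3.59 of Th1 cells and 2.44% ± 2.20 of B cells. Median depths were 3376 UMIs for Tregs, 5088 for Th1 cells and 7302 for B cells. C1qa, a macrophage transcript that T cells should lack, was read beside Axl, a choice made after its values were seen. The ratio of Axl to C1qa UMIs was 0.0741 to 0.636 in CD4+ cells and 0.063 to 0.189 in CD8+ cells. In the monocyte-derived cells of the same mice it was 0.0447 to 0.0696, but single names differed widely. Pooled over mice, Macrophages (P5) held 5105 Axl and 124867 C1qa UMIs, and Monocytes (P1-P2) held 2019 and 10687. For mo-DCs these counts were 1828 and 6444, and for cDC1 they were 1731 and 1660. The ratio expected of free RNA therefore depends on its source, which is not known here. How much of the Axl in T cells was free RNA was not tested.

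Tyro3, the third TAM kinase, known from neurons, was almost absent from phagocytes. Of its 267 UMIs in the matrix, 168 lay in T cells, 79 in the 384 tumour or stromal cells, 6 in 7477 monocyte-derived cells and 1 in 414 microglia. Its level was 8.92 ± 3.05 CPM (SD, n = 5) in tumour or stromal cells and 2.36 ± 0.694 CPM (SD, n = 7) in T cells. In microglia Tyro3 was at 1.81 CPM in WT replicate 1 and at 0 in the other 6 mice.

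Of the ligands, Gas6 and Pros1 followed the microglia names. Gas6 was at 217 ± 103 CPM (n = 5) in low-quality/activated microglia and 154 ± 39.6 CPM (n = 3, all WT) in Microglia, while Macrophages (P5) came next at 13.8 ± 11.8 CPM (n = 7), a step beyond the spread over mice. Gas6 was at 1.41 ± 1.49 CPM (n = 7) in mo-DCs. Pros1 was at 249 ± 106 CPM (n = 5) and 184 ± 6.81 CPM (n = 3, all WT) in the same 2 names and at 23.7 ± 5.74 CPM (n = 6) in proliferating macrophages, the next in order. In the WT mice alone, low-quality/activated cells held Gas6 at 183 ± 47.8 CPM and Pros1 at 286 ± 129 CPM (SD, n = 3). Microglia were 1.45% of all cells and held 31.7% of the Gas6 UMIs, 18.5% of the Pros1 UMIs, 12.1% of the Mertk UMIs and 1.85% of the Axl UMIs. Monocyte-derived cells, 26.1% of all cells, held more of each: 59.4% of the Gas6, 42.4% of the Pros1, 76.3% of the Mertk and 60.9% of the Axl UMIs. Within Macrophages (P5), the 329 cells with a Gas6 UMI had the 8 microglia markers at a summed 2735 CPM and the 3130 cells without one at 1396 CPM, with median depths of 8546 and 6271 UMIs.

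Mfge8 was highest outside the microglia. It was at 181 ± 7.45 CPM (n = 5) in tumour or stromal cells, 59.4 ± 23.9 CPM in mo-DCs and 29.1 ± 25 CPM in cDC2 (n = 7 each), and 25.3 ± 3.82 CPM (n = 7) in NK cells. In Microglia Mfge8 was at 9.24 ± 5.38 CPM (n = 3). The tumour or stromal cells held the collagen transcript Col3a1 at 591 CPM pooled over mice and no UMI of the astrocyte transcript Gfap. Of 6 fibroblast and pericyte markers, 5 were highest in this class, but those other than Col3a1 were only at 6.25 to 17.2 CPM. The name is kept as the authors gave it.

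**Figure D1:**
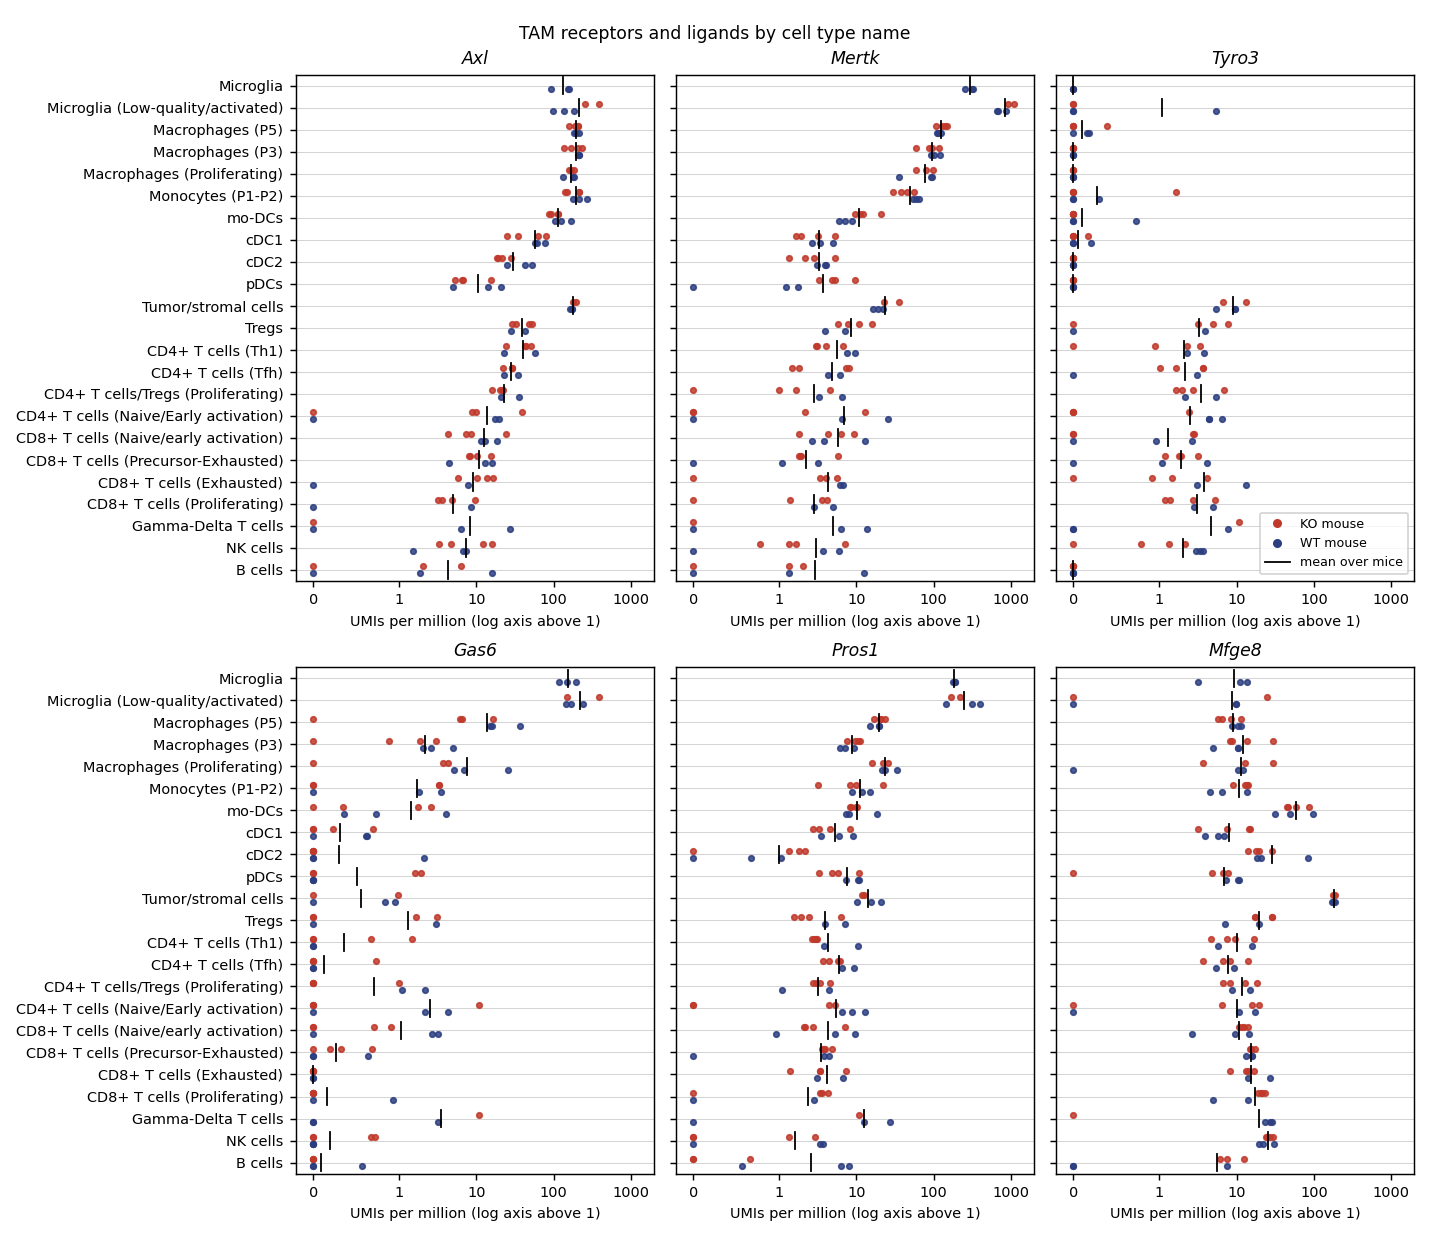
Level of each TAM receptor and ligand (UMIs per 1000000, log axis above 1) in the 23 cell type names. Points are mice with at least 20 cells, coloured by genotype, and the black line is the mean over mice. Mertk, Gas6 and Pros1 are highest in both microglia names, the mean of Axl lies between 134 and 213 across the microglia, macrophage and monocyte names, the lower value from WT mice only and the upper from KO and WT mice, and Mfge8 is highest in tumour or stromal cells at 181.

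Across the 23 names, the pooled log2(CPM + 1) levels of Gas6 and Pros1 had a Pearson r of 0.92, Mertk and Pros1 0.90, Mertk and Gas6 0.89, and Axl and Mertk 0.83. Mfge8 stood apart from Mertk (-0.14) and Gas6 (-0.24). These values describe 23 names from 7 shared libraries, and depth and free RNA are common to all of them. Among 10929 genes, those with a pattern most like Mertk included Lhfpl2 (0.98) and Mtus1 (0.98), both highest in low-quality/activated microglia. For Gas6 they were Slco2b1, Gm43720 and Gal3st4 (0.97 each), and for Pros1 they included Npl and Tanc2 (0.93 each). Axl was most like Ubtd1, Gm4951 and Nfix (0.93 each), Mfge8 most like Gprc5b (0.81), Plat (0.79) and Ghr (0.78), and Tyro3 most like Nol10 (0.92), Gm16001 (0.92) and Crmp1 (0.92).

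The design sets mice with Siglece deletion aimed at microglia against mice without it, and the members were compared between KO and WT within each class. Among the members that passed the filter in microglia, Axl had the largest difference, with KO mice above WT mice, but did not pass the test over all genes. Its level was 305, 196, 325 and 361 CPM in KO replicates 1 to 4 and 146, 164 and 92.8 CPM in WT replicates 1 to 3. The lowest KO mouse stood above the highest WT mouse; KO replicate 3 had 13 microglia and was not in the fit. Means were 287 ± 84.1 CPM in KO and 134 ± 37.2 CPM in WT (SD, n = 3 each). The log2 fold change was 1.17 (SE 0.26), and its adjusted p in edgeR was 0.057, just short of the threshold of 0.05. In that comparison 0.0415% of 4820 genes were called, 8.9% had all KO mice of the fit above all WT mice, and 8.14% of 3696 genes did so with KO replicate 3 included. No member was called in microglia.

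The Axl difference kept its direction in 16 of 16 alternatives, between 0.75 and 1.36, and passed the threshold in 4 of them. Without KO replicate 2, which had 21 microglia, the adjusted p in edgeR was 0.0217. With cells of at least 2000 UMIs it was 0.0281, but KO replicate 2 then fell under 20 cells and was left out as well. Over all 16 alternatives the adjusted p in edgeR ran from 0.00921 to 0.823. Within the low-quality/activated cells alone, Axl was 389, 248, 325 and 258 CPM in KO replicates 1 to 4 and 135, 185 and 97.4 CPM in WT replicates 1 to 3, again without overlap, as were 4.98% of 1788 genes with KO mice higher, from as few as 13 cells in a mouse. Within Microglia alone Axl was 253, 149 and 446 CPM in KO replicates 1, 2 and 4, from 10, 7 and 15 cells, and 152, 157 and 91 CPM in WT mice, with KO replicate 2 among the WT values. The log2 fold changes of Axl in the 2 names were 1.12 (SE 0.33) and 1.27 (SE 0.33) when mice with at least 5 cells were used, a minimum lowered from 20 after seeing the data, with adjusted p of 0.188 and 0.251 in edgeR.

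Marker lists were read in the same microglia. The 8 microglia markers summed to 5198 to 8495 CPM in KO and 7632 to 10729 CPM in WT mice of the fit, which overlap. With all mice pooled none of the 8 was at 0. The 7 T cell markers summed to 42.9 to 139 CPM in KO and 10.8 to 41.1 CPM in WT mice, without overlap, and the 8 monocyte-derived markers to 244 to 391 CPM in KO and 227 to 324 CPM in WT mice, with overlap. Low-quality/activated cells were 20 of 30, 14 of 21, 13 of 13 and 34 of 49 microglia in KO replicates 1 to 4. They were 69 of 113, 44 of 92 and 57 of 96 in WT replicates 1 to 3, a smaller share than in any KO mouse. The part of these signals in the Axl difference was not tested.

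Mertk in microglia was 600, 626, 1003 and 572 CPM in KO replicates 1 to 4 and 504, 357 and 411 CPM in WT mice, also without overlap, like 8.9% of genes in the mice of the fit and 8.14% with KO replicate 3. Means were 600 ± 27.2 CPM in KO and 424 ± 74 CPM in WT (SD, n = 3 each, without KO replicate 3). Its log2 fold change was 0.48 (SE 0.24) with an adjusted p of 0.445 in edgeR, which did not pass. In the fits of single names with mice of at least 5 cells, a minimum lowered after seeing the data, the log2 fold change of Mertk was 0.10 (SE 0.28) in Microglia and 0.37 (SE 0.26) in low-quality/activated cells. Low-quality/activated cells held more Mertk than Microglia and were a larger share of the microglia in KO mice. The part of this mix in the Mertk difference was not tested.

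Gas6 in microglia overlapped fully, at 209, 157, 406 and 94.4 CPM in KO replicates 1 to 4 and 209, 155 and 125 CPM in WT mice. Its log2 fold change was -0.11 (SE 0.29), with an approximate 95% interval of -0.67 to 0.45. Pros1 was 123, 176, 244 and 161 CPM in KO and 231, 169 and 244 CPM in WT mice, with a log2 fold change of -0.54 (SE 0.26) and an adjusted p of 0.414 in edgeR. Mfge8 and Tyro3, with 18 and 1 UMIs in all microglia, were below the filter on low counts.

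In monocyte-derived cells edgeR called no gene among 11943 (0%), and 674 genes were at an unadjusted p under 0.05 in edgeR (5.64%). DESeq2 called 20 genes, none of them a member. Axl was 154, 207, 205 and 180 CPM in KO replicates 1 to 4 and 224, 201 and 186 CPM in WT mice. The groups overlapped, with a log2 fold change of -0.12 (SE 0.14) and an approximate 95% interval of -0.39 to 0.15. It ran from -0.17 to -0.0307 with 1 mouse left out (the last without KO replicate 1) and was -0.36 in Monocytes (P1-P2) alone. Mertk was 88.7, 110, 119 and 94.8 CPM in KO and 95.3, 99.7 and 102 CPM in WT mice, a log2 fold change of 0.06 (SE 0.13) with an approximate 95% interval of -0.20 to 0.32. With 1 mouse left out the change of Mertk ran from 0.0142 to 0.133. Pros1 differed by 0.13 (SE 0.14) on the log2 scale, with 15.1 to 16.8 CPM in KO and 13.5 to 15.5 CPM in WT mice, and by 0.0431 without WT replicate 1.

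Gas6 in monocyte-derived cells was 3.85, 4.41, 0.27 and 8.88 CPM in KO replicates 1 to 4 and 21.8, 10 and 7.67 CPM in WT replicates 1 to 3. Only KO replicate 4 reached into the WT range. The log2 fold change was -1.49 (SE 0.63) with an adjusted p of 0.867 in edgeR, and without WT replicate 1 or KO replicate 4 it lay between -2.10 and -0.97. Within single cell type names the change of Gas6 ran from -3.01 in proliferating macrophages to -0.24 in Monocytes (P1-P2). Those 2 names held only 59 and 18 of the 573 Gas6 UMIs of the class, while Macrophages (P5) held 461. The microglia markers in these cells summed to 836 to 1001 CPM in KO and 890 to 1651 CPM in WT mice. The 8 border-associated macrophage markers summed to 375 to 681 CPM in KO and 559 to 911 CPM in WT mice. With all mice pooled none of these markers was at 0, but Lyve1 was at no more than 0.174 CPM in any class. The T cell markers summed to 48.7 to 79.9 CPM in KO and 13.9 to 31.6 CPM in WT mice. Their part in the Gas6 difference was not tested.

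In mo-DCs neither receptor passed the test, and the values of Mertk and Axl lay in opposite directions. Mertk was 11.1, 12.3, 9.67 and 20.9 CPM in KO replicates 1 to 4 and 5.96, 7.06 and 8.74 CPM in WT mice, without overlap, from 16 to 57 UMIs in KO and 12 to 20 in WT mice. The log2 fold change of Mertk was 0.92 (SE 0.32) with an adjusted p of 0.579 in edgeR. Axl was 87.9, 91.3, 115 and 113 CPM in KO and 169, 105 and 123 CPM in WT mice, a log2 fold change of -0.42 (SE 0.18) with an adjusted p of 0.631 in edgeR. With 1 mouse left out the change of Axl ran from -0.56 to -0.20, the last without WT replicate 1. No gene of 10501 was called in mo-DCs (0%) by edgeR, 798 were at an unadjusted p under 0.05 (7.6%) and 5.35% had all KO mice above all WT mice. DESeq2 called 34 genes, none of them a member. The monocyte-derived markers in mo-DCs summed to 1930 to 2785 CPM in KO and 2346 to 3866 CPM in WT mice. The T cell markers there summed to 63.5 to 211 CPM in KO and 19.4 to 44.4 CPM in WT mice. With all mice pooled no marker of either list was at 0. Of the 8 monocyte-derived markers, 3 had their highest class level in monocyte-derived cells and 1 in mo-DCs, so their sum is not particular to monocyte-derived cells. The part of these signals in the Mertk and Axl values was not tested. Over all mice, Mertk in mo-DCs (10.8 ± 4.96 CPM, SD, n = 7) lay within the spread of Tregs (8.52 ± 4.21 CPM, SD, n = 6). How much of the Mertk in mo-DCs was free RNA was not tested. Mfge8 in mo-DCs was 46.3, 58.7, 45.3 and 86.2 CPM in KO and 31.7, 97.7 and 49.5 CPM in WT mice, with a log2 fold change of -0.05 (SE 0.41).

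In the other 3 classes fitted no member was called. Axl in conventional dendritic cells was 24 to 69.7 CPM in KO and 49.1 to 71.5 CPM in WT mice, a log2 fold change of -0.40 (SE 0.31) that ran from -0.67 (without KO replicate 2) to -0.23 (without KO replicate 1) with 1 mouse left out and was -0.98 in cDC2 alone. There edgeR called none of 11753 genes (0%), 817 (6.95%) were at an unadjusted p under 0.05 and DESeq2 called 14. In T cells edgeR called none of 13043 genes (0%), 855 (6.56%) were at an unadjusted p under 0.05 and DESeq2 called 35. There Axl differed by -0.23 (SE 0.33) and Mfge8 by 0.10 (SE 0.15) on the log2 scale. With 1 mouse left out the change of Mfge8 ran from 0.0213 to 0.179. The fit of the tumour or stromal class had 2 KO mice against 3 WT mice, and edgeR called 0.0288% of the 10431 genes; before adjustment, 8.62% had a p under 0.05. There Axl was 178 and 193 CPM in KO replicates 2 and 4 and 174, 162 and 173 CPM in WT mice, and Mfge8 was 179 and 189 CPM in KO and 179, 187 and 170 CPM in WT mice. Mertk in those cells was 35.4 and 22.7 CPM in KO and 16.2, 18.8 and 22.3 CPM in WT mice, a log2 fold change of 0.60 (SE 0.29) with an adjusted p of 0.587 in edgeR, and 0.26 without KO replicate 2, which leaves 1 KO mouse; 11.9% of genes had both KO mice above all WT mice.

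**Figure D2:**
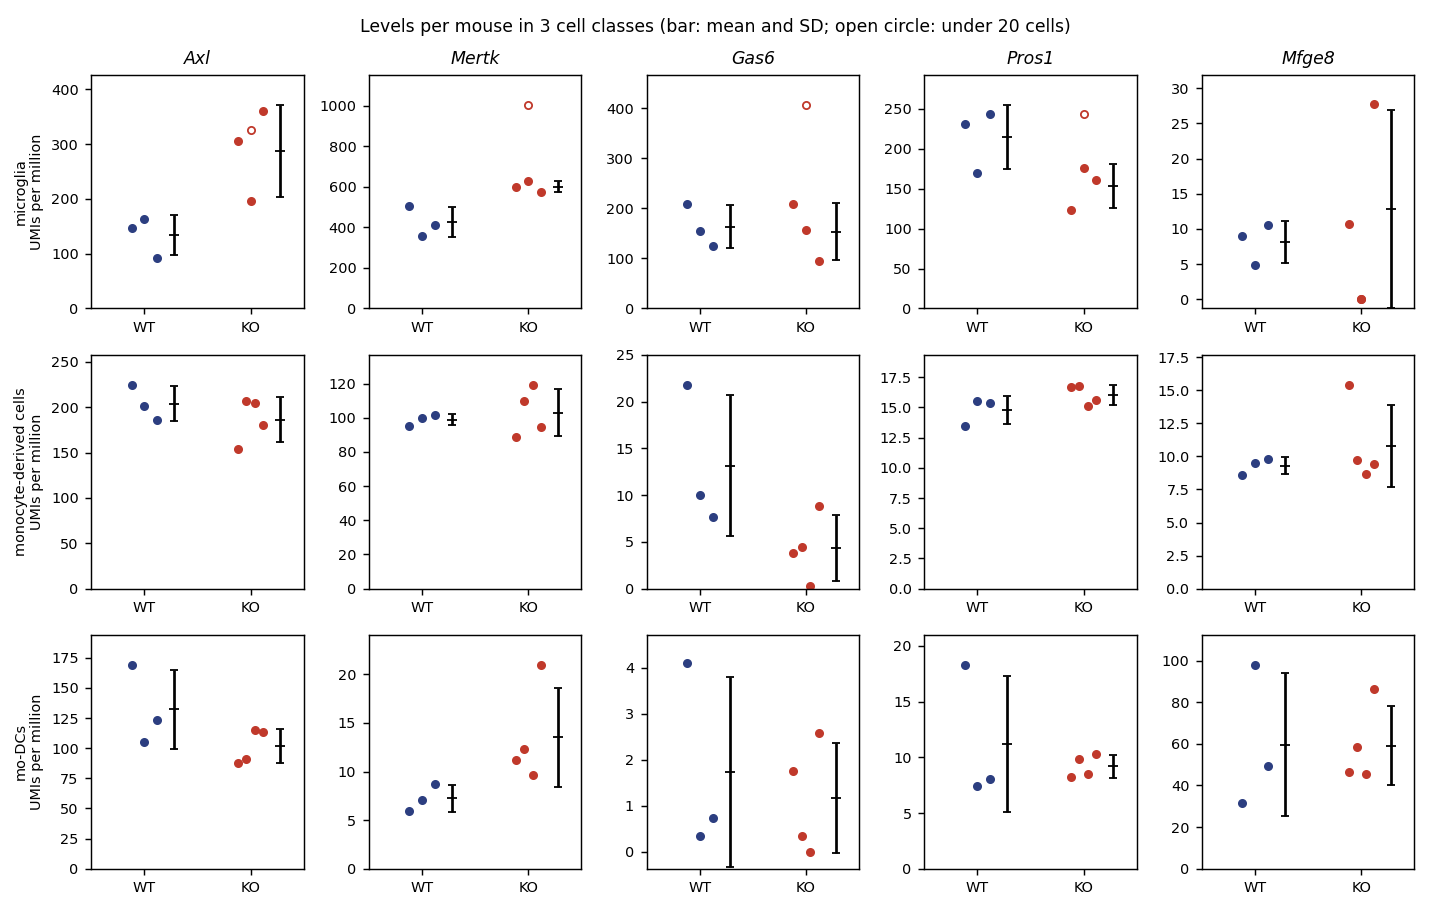
Level (UMIs per 1000000, linear axes) of 5 members in microglia, monocyte-derived cells and mo-DCs, 1 point per mouse, with mean and SD over the mice with at least 20 cells; the open circle is KO replicate 3 with 13 microglia. Axl and Mertk in microglia and Mertk in mo-DCs have all KO mice above all WT mice, and Gas6 in monocyte-derived cells is lower in KO mice apart from KO replicate 4 at 8.88.

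The genotype effect on Axl differed between the classes. The effect in microglia exceeded that in monocyte-derived cells by 1.21 (SE 0.27) on the log2 scale, with an adjusted p of 0.00622 for the class-by-genotype term in edgeR, fitted with 3 KO and 3 WT mice. In that comparison 62 of 11858 genes (0.523%) were called, and Axl was the only member among them. The difference in Axl kept its direction in 9 of 9 alternatives, but the adjusted p in edgeR was 0.162 without KO replicate 1, 0.0658 without KO replicate 4, 0.0545 without WT replicate 1, 0.184 without WT replicate 3 and 0.144 with KO replicate 3 kept. The same term was 0.33 (SE 0.25) for Mertk, 0.79 (SE 0.36) for Gas6 and -0.86 (SE 0.32) for Pros1, with adjusted p of 0.692, 0.394 and 0.218 in edgeR. Without WT replicate 1 the term for Mertk was 0.56. For Gas6 the term was 1.64 without KO replicate 4 and 0.0870 without KO replicate 1, with adjusted p of 0.0275 and 0.981 in edgeR. Of the 9 alternatives for Gas6, 1 passed.

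**Figure D3:**
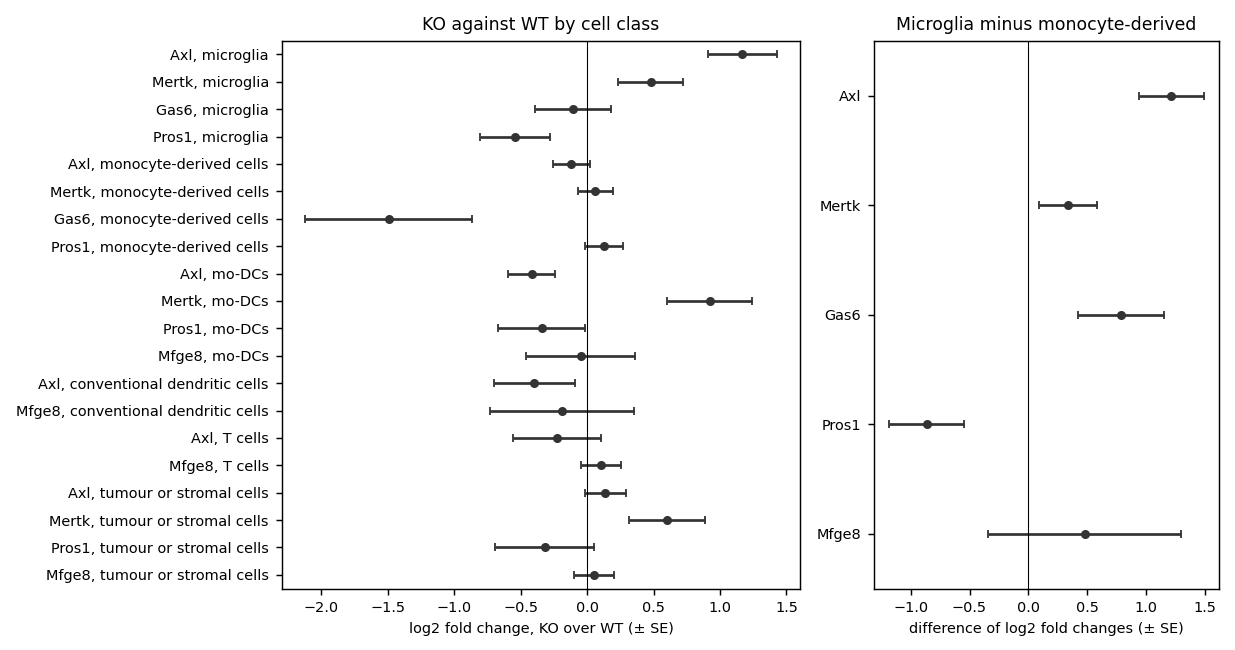
Left, log2 fold change of KO over WT with its SE for each member and class that passed the filter and is printed; right, the difference of that change between microglia and monocyte-derived cells with its SE. Axl in microglia stands at 1.17 and its difference from monocyte-derived cells at 1.21, while Axl and Mertk in monocyte-derived cells lie within 1 SE of 0.

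The balance of Axl to Mertk was measured within the same cells as the ratio of their UMIs; it compares cell types and genotypes and not the abundance of the genes. In monocyte-derived cells the ratio of Axl to Mertk was 1.73, 1.89, 1.72 and 1.90 in KO replicates 1 to 4 and 2.35, 2.02 and 1.83 in WT mice. In mo-DCs it was 7.89, 7.43, 11.9 and 5.4 in KO and 28.3, 14.9 and 14.1 in WT mice, with every KO mouse below every WT mouse. These ratios rest on 12 to 57 Mertk UMIs per mouse, at a mean level within the spread of Tregs. With 0.5 added to each count, the difference of the mean log2 ratio in mo-DCs was -1.19, with 2.95 ± 0.457 in KO (n = 4) and 4.13 ± 0.562 in WT (n = 3), and an exact two-sided permutation p of 0.0571, or 0.171 adjusted over the 3 classes. In monocyte-derived cells the difference was -0.18 (exact permutation p = 0.114, n = 4 and 3), and in microglia it was 0.59 (exact permutation p = 0.2, n = 3 and 3), both 0.171 or more when adjusted. The smallest p these designs allow is 0.0286 with 4 mice against 3 and 0.1 with 3 against 3, so microglia could not pass. After adjustment over the 3 classes, mo-DCs and monocyte-derived cells could pass only if both reached their smallest p. With 1 mouse left out the difference ran from 0.36 (without WT replicate 3) to 0.87 (without WT replicate 2) in microglia, from -0.27 (without WT replicate 3) to -0.09 (without WT replicate 1) in monocyte-derived cells and from -1.38 to -0.86 in mo-DCs.

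**Figure D4:**
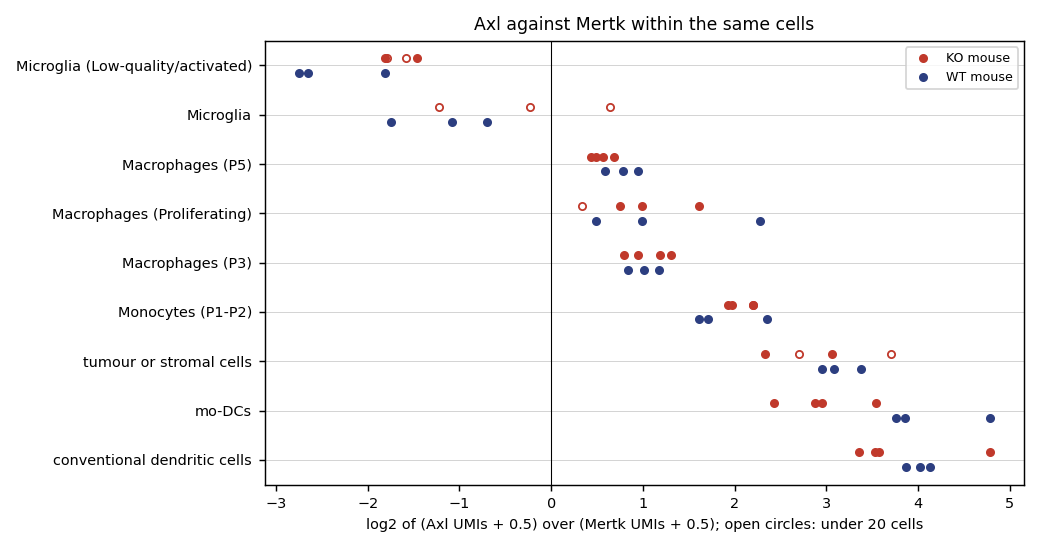
log2 ratio of Axl to Mertk UMIs per mouse in the myeloid names and in 3 other classes, with open circles for mice under 20 cells. The ratio lies below 0 in low-quality/activated microglia, between 0.43 and 1.30 in Macrophages (P3) and (P5), and between 2.42 and 4.78 in mo-DCs, where KO mice sit below WT mice.

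The share of cells with UMIs of both receptors depended on the depth at which it was read. With each cell thinned to 1500 UMIs, 29.4% of 102 KO microglia and 9.96% of 271 WT microglia had UMIs of both Axl and Mertk. In monocyte-derived cells these shares were 4.03% of 2708 KO cells and 3.84% of 4716 WT cells. Without thinning, both were found in 47.8% of KO and 26.9% of WT microglia, in 29.7% of KO and 29.9% of WT monocyte-derived cells, and in 31.6% of KO and 30.9% of WT tumour or stromal cells, so WT microglia stood above the monocyte-derived cells only at matched depth. In mo-DCs thinned to 1500 UMIs, 12.4% of KO and 18.1% of WT cells had Axl alone. By mouse, an Axl UMI was found in 43.3% and 48.8% of microglia in the 2 KO mice with at least 20 cells of that depth, and in 16.2% to 24.4% in the 3 WT mice. Cells of 1 mouse are not replicates, so the pooled shares carry no test.

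**Figure D5:**
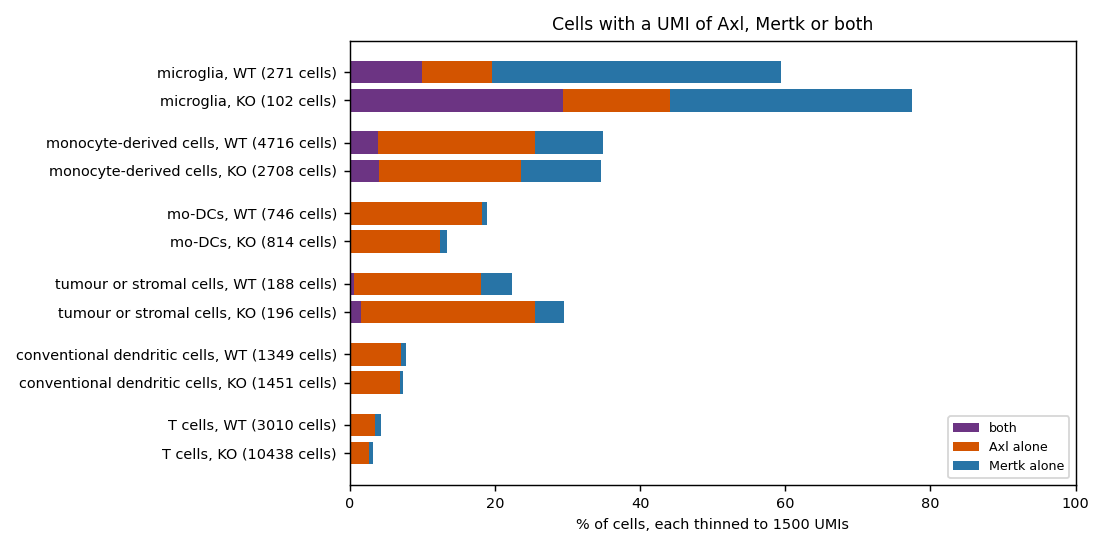
Share of cells (%) with a UMI of both Axl and Mertk, of Axl alone or of Mertk alone, in 6 classes by genotype, each cell thinned to 1500 UMIs and cells pooled over mice. Cells with both are 29.4% of KO and 9.96% of WT microglia, and about 4% in monocyte-derived cells of either genotype.

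The wider pathway was read from 74 genes: 28 other phosphatidylserine receptors and bridging molecules, 13 of engulfment signalling, 18 that regulate or process TAM proteins, 10 of corpse digestion and lipid efflux, and 5 of phosphatidylserine exposure. As fitted in edgeR over all genes, none of the 74 was called in any of the 6 classes; some were called under alternatives. In microglia 43 passed the filter, 19 higher and 24 lower in KO, with 4 and 3 of them at an unadjusted p under 0.05 in edgeR, where all genes gave 11.8%, 6.39% higher and 5.44% lower. Their median log2 fold change was -0.06, against 0.00 over all 4820 genes. Those with the smallest p were Lgals3, which encodes the lectin galectin-3 (-1.74, SE 0.38, adjusted p = 0.0853 in edgeR), the phosphatidylserine receptor Cd300lf (0.95, SE 0.29, adjusted p = 0.16 in edgeR) and Havcr2, which encodes TIM-3 (0.73, SE 0.26, adjusted p = 0.242 in edgeR). Lgals3 was lower in KO in 15 of 15 alternatives (-2.56 to -0.81) and was called in 5 of them: in DESeq2 (adjusted p = 0.0118), and in edgeR without the filter on low counts (3.47e-06), without KO replicate 1 (0.000564), without WT replicate 2 (0.0105) and with sex as a term (0.00921). In monocyte-derived cells 60 passed the filter, 26 higher and 34 lower, with 1 and 1 at an unadjusted p under 0.05, where all genes gave 2.84% higher and 2.8% lower, and a median of -0.04. Ucp2, a mitochondrial carrier tied to continued engulfment, was at 0.37 (SE 0.15), Ggcx, the vitamin K-dependent carboxylase that Gas6 and protein S need, at -0.69 (SE 0.28), and Cd300lf at 0.33 (SE 0.15), with adjusted p of 0.83, 0.831 and 0.877 in edgeR. Pathway genes called in other classes only under an alternative, named here for that reason, included Abca1 and Thbs1 in tumour or stromal cells without the filter, Ucp2 there without WT replicate 2, and Rhog in T cells by DESeq2.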

How the data were processed

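The deposited matrix holds expected counts, UMIs per gene and cell that the authors did not scale; 7.51% of the values above 0 were fractional, none of them in the 6 members (tolerance 1e-06). The authors' cell table gives detected genes as counts per cell and mitochondrial content as percent of UMIs. The submitters' processing notes name FastQC 0.11.5, STARsolo, STAR 2.7.10a and mm10; cell filters, doublet removal and the naming of cell types are not given in the sources used here. For each mouse and class the UMIs were added up and rounded to whole numbers, a step adopted because the design assumed whole counts. Each class was fitted in edgeR 4.0.16 (TMM, filterByExpr, robust quasi-likelihood) over mice with at least 20 cells; calls required p under 0.05 after Benjamini-Hochberg adjustment across every gene in the fit, and members below the filter were kept in a second fit. DESeq2 1.42.0 was an alternative. Changes are printed for members that passed the filter and had at least 10 CPM in the class or an unadjusted p under 0.05, a rule set after the values were seen. Intervals are 1.96 SE on each side, which is narrower than the edgeR test implies with so few mice. For Mertk in microglia that interval would be 0.0021 to 0.958, while the unadjusted p in edgeR was 0.0576. Nothing beyond 1 library per mouse is stated about replicates. Named genes were the members, Siglece, Sall1, pathway genes that were called (otherwise the 3 with the smallest p in microglia and monocyte-derived cells), and the 3 genes most like each member among those with at least 20 CPM in some name, of which some are not reported here; Col3a1, Gfap and C1qa were added after their values were seen. The members and lists were chosen with earlier results of these data known.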

Additional observations from a re-analysis of the deposited data

Results flagged for a closer look

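The genotype effect on Axl differed between 2 cell classes of the same mice. The log2 fold change in microglia exceeded that in monocyte-derived cells by 1.21 (SE 0.27, adjusted p = 0.00622 in edgeR over 11858 genes, of which 0.523% were called). The test used 3 KO and 3 WT mice, and leaving out KO replicate 1 or 4, or WT replicate 1 or 3, ended the call. A sample far from the others was looked for among the 4 KO mice in 12 pairs of member and class, and none was found. Microglia and tumour or stromal cells, with fewer than 4 KO mice in the fit, were not searched, and neither were WT mice. The search therefore does not cover the Axl values in microglia.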

How the results depend on the processing

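Microglia rest on 21 to 113 cells per mouse of the fit, which limits every value there, and the separate cell type names rest on fewer. Of the alternative log2 fold changes of members, 270 kept their direction and side of the threshold, 28 changed sign and 4, all of Axl in microglia, passed it: 1.05 without a filter on low counts, 1.31 without KO replicate 2, 1.35 with sex as a term and 1.36 with cells of at least 2000 UMIs. KO replicate 2 was also absent from the fit with cells of at least 2000 UMIs. All 29 alternatives of the Axl to Mertk ratio kept their direction, with sizes that moved as given beside them. Of the shares of cells with a UMI, 54 moved by more than the spread over mice at another thinning depth or without thinning, and 4 did not. The cause of the changes below was not tested.

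Called genes in microglia (2) numbered 41 without the filter, 10 with sex as a term, 4 with whole values only, 11 with cells of at least 2000 UMIs, 5 in low-quality/activated cells alone, and 3 to 15 with 1 mouse left out. With the minimum lowered to 5 cells, an alternative chosen after seeing the data, they numbered 1 in Microglia alone and 2 in low-quality/activated cells alone. In monocyte-derived cells (0) they numbered 20 in DESeq2, 5 without the filter, 2 in Macrophages (P5) alone, and 0 to 5 with 1 mouse left out. In mo-DCs (0) they numbered 34 in DESeq2, 182 without the filter and 0 to 2 with 1 mouse left out, and in conventional dendritic cells (0) 14, 14 and 0 to 2. In T cells (0) they numbered 35 in DESeq2, 3 without the filter, 1 in Tfh, 3 in Th1, 4 in proliferating CD4+ cells and Tregs, 1 in exhausted CD8+, 2 in naive CD8+, 3 in Tregs, and 0 to 2 with 1 mouse left out. In tumour or stromal cells (3) they numbered 16 in DESeq2, 167 without the filter, 7 with sex as a term, 11 with mice under 20 cells kept, and 0 to 25 with 1 mouse left out (0 without WT replicate 3; 17 and 25 without KO replicates 2 and 4, which leave 1 KO mouse, assumed to vary as the WT mice do).

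The class difference of the genotype effect was 1.03 to 1.51 for Axl with 1 mouse left out and 1.13 with mice under 20 cells kept, 0.25 to 0.56 for Mertk, -1.01 to -0.67 for Pros1, 0.0870 to 1.64 for Gas6, and -0.73 (without KO replicate 4) to 1.14 for Mfge8. Log2 fold changes that changed sign with 1 mouse left out were Gas6 in microglia (-0.57 to 0.18; 0.18 without KO replicate 4, 0.09 without WT replicate 1), Pros1 in mo-DCs (-0.60 to 0.24, the last without WT replicate 1), Mfge8 in mo-DCs (-0.37 to 0.56; 0.04, 0.07 and 0.56 without KO replicates 1 and 3 and WT replicate 2), Mfge8 in conventional dendritic cells (-0.54 to 0.66; 0.04 and 0.66 without KO replicate 3 and WT replicate 2), Axl in T cells (-0.46 to 0.24, the last without WT replicate 2) and Mfge8 in tumour cells (-0.0281 to 0.13, the first without KO replicate 4). With mice under 20 cells kept, Gas6 in microglia was 0.11 and Mfge8 in tumour cells -0.0901, and with sex as a term Mfge8 in mo-DCs was 0.0200. In single cell type names, Gas6 was 0.46 in low-quality/activated microglia and 0.49 with the minimum at 5 cells, an alternative chosen after seeing the data. In proliferating macrophages Pros1 was -0.30 and Axl 0.055, and Mertk was -0.49 in Monocytes (P1-P2) and -0.21 in Macrophages (P3). Axl was 0.19 in naive CD4+, 0.00752 in Th1, 0.73 in exhausted CD8+ cells and 0.0491 in Tregs, and Mfge8 was -0.20 in Th1, -0.0540 in proliferating CD4+ cells and Tregs, -0.46 in exhausted CD8+ cells and 0.80 in cDC1.

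KO and WT mice share only a replicate number: deviations of mice with the same number correlated between -0.21 and 0.13 over the classes. With the number as a replicate block, 17 genes were called in microglia, 3 in monocyte-derived cells, 8 in mo-DCs, 5 in conventional dendritic cells and 3 in T cells; Axl in microglia was 0.75 (adjusted p = 0.823 in edgeR) and Gas6 0.00262. The block could not be fitted for tumour or stromal cells.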
